A study of Mus musculus with 6 samples.

Results

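The genes described are 8 that set the length and the row identity of stereocilia, the actin-filled protrusions of the hair bundle: *Myo15*, *Whrn*, *Eps8*, *Gpsm2*, *Gnai3*, *Eps8l2*, *Myo3a* and *Myo3b*. They were chosen by name, for their known place at stereocilia tips, from the 24411 gene symbols measured, and all 8 were among the 15303 genes with enough reads to be tested. The libraries were made from poly(A) RNA of the microdissected sensory epithelium of the mouse cochlea at P9, before the onset of hearing. *Kir2.1*-OE mice were compound heterozygous for *Otof*-rtTA and tetO-*Kir2.1*-IRES-tau-lacZ on the C57BL/6N background. Drinking water with 0.5 mg/ml of doxycycline (DOX) switched on the overexpression of Kir2.1, an inward rectifier K+ channel. Controls, which the sample labels name WT, were littermates heterozygous for *Otof*-rtTA that received the same DOX, so both groups carried the rtTA allele and the drug. The *Otof* promoter drives rtTA in hair cells, mainly the inner hair cells (IHCs), and each of the 3 libraries in a group is 1 pool of 8 cochleae from 4 mice. A pool, not a mouse, is therefore the replicate, and the p-values measure the spread between pools.

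Hair bundles are built as a staircase of rows, with row 1 the tallest. The motor protein MYO15 carries the scaffold whirlin and the actin regulator EPS8 to the tips of row 1, where GPSM2 and the G-protein subunit GNAI3 join them, and this complex is needed for the row to reach its full height. EPS8L2, a relative of EPS8, is known at stereocilia tips and is needed to maintain the shorter rows in adult hair cells, while the class III myosins MYO3A and MYO3B move espin-family proteins towards tips. The comparison asks how the RNA of these genes differed between tissue with and without overexpression of Kir2.1 in its hair cells at P9.

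Between 35430940 and 41205047 reads were assigned per library, and the TMM scaling factors lay between 0.984 and 1.01. A count of 0 allows at most 8.47e-06% of the reads of a library, a limit of 3 counts that covers counting error only. *Kcnj2*, which encodes Kir2.1, had normalized counts (counts scaled to a library of mean size) of 3612, 3813 and 2213 in the *Kir2.1*-OE libraries and of 236, 228 and 226 in the controls, each in the order of replicates 1 to 3, as are all values below. Its mean was 13.97-fold higher in *Kir2.1*-OE, with a log2 fold change of 3.80 (adjusted p = 7.04e-05, edgeR quasi-likelihood test, Benjamini-Hochberg). Hair cells were present in every library by their defining markers: *Pou4f3*, a hair cell transcription factor, lay between 1009 and 1382 normalized counts, and *Otof*, a synaptic protein mainly of IHCs, between 1749 and 4089. The tissue also held markers of outer hair cells, supporting cells, spiral ganglion neurons, glia, cartilage, fibrocytes and blood, and none of these markers was at 0 in every library. In such bulk samples, fewer cells of a type and less RNA per cell cannot be told apart.

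The 8 genes lie on 6 chromosomes of mm10, in the GENCODE vM21 annotation. *Myo15* spans chr11:60469339-60528369 on the plus strand, with 66 exons in its longest transcript, and *Whrn* spans chr4:63414910-63495991 on the minus strand. *Eps8* spans chr6:137477245-137654876 on the minus strand, and *Eps8l2* spans chr7:141338880-141363020 on the plus strand. *Gpsm2* (chr3:108678638-108722309) and *Gnai3* (chr3:108107280-108146146) are both on the minus strand and 532.5 kb apart. *Myo3a* (chr2:22227503-22618252) and *Myo3b* (chr2:70039126-70429198) are both on the plus strand of chromosome 2. Reads were counted over whole genes, so the 5 annotated transcripts of *Myo15*, whose protein is known in a long and a short form, are not separated.

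Because *Myo15* and *Whrn* rose most among the members, and *Gnai3* fell, the 250 bases before the start of each (RefSeq, GRCm38.p6, read 5′ to 3′ on the gene's strand) are shown for comparison. Capitals mark a match to 1 of 3 words searched on both strands: CAGCTG (an E-box of the kind bound by bHLH factors such as ATOH1), GTTGCC (letters shared by RFX sites, here as its reverse complement GGCAAC) and ACAAAG (letters shared by SOX sites).
Myo15, chr11:60469089-60469338, plus strand: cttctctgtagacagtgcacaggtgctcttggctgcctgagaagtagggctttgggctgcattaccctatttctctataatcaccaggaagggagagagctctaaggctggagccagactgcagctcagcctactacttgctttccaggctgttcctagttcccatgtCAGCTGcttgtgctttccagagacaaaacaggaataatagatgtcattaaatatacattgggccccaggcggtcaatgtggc
Whrn, chr4:63495992-63496241, minus strand: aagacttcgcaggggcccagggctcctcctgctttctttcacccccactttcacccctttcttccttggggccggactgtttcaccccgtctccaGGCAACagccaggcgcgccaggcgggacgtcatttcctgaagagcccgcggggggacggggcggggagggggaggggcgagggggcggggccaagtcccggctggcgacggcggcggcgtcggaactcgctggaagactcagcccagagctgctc
Gnai3, chr3:108146153-108146402, minus strand: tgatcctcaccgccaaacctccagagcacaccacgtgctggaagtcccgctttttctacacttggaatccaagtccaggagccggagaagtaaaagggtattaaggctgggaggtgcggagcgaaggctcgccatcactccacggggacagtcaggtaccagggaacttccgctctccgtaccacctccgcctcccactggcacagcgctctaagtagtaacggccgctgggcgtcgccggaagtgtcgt

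The *Myo15* window held 1 E-box, 82 bases before the start, the *Whrn* window held 1 RFX word, 155 bases before the start, and no word matched in *Gnai3*. Of 32851 RefSeq promoters, 13% held CAGCTG, 10.4% held GTTGCC and 16.5% held ACAAAG. *Gpsm2*, *Eps8l2*, *Myo3a* and *Myo3b* also had entries and held none of the 3 words, and 7 of the 8 members could be searched. Base composition set the windows apart: *Myo15* had 49.6% GC and 1 CG dinucleotide, *Whrn* 69.6% GC and 21, and *Gnai3* 59.6% GC and 18, beside medians of 52.4% and 6 over all promoters. These are matches of letters, and no binding was measured.

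The members differed widely in level. Per kb of the longest annotated transcript, the control mean of *Gnai3*, which is expressed in many cell types, was 4180 ± 156 normalized counts (SD, n = 3), and that of *Myo3a*, the lowest, was 8.94 ± 2.22. *Gpsm2* (346 ± 24.6) and *Eps8l2* (344 ± 31.4) came next after *Gnai3*, and their ranges overlapped. They were followed by *Eps8* (193 ± 15.5), *Whrn* (86.3 ± 14.5), *Myo3b* (29.0 ± 4.43) and *Myo15* (14.1 ± 1.06). Apart from *Gpsm2* and *Eps8l2*, no neighbouring pair in this order overlapped between its 3 control libraries. The distances between neighbours depend on the length taken. The median annotated transcript is 7953 nt for *Myo15* and 2200 nt for *Myo3a*, beside longest ones of 11769 and 5082 nt.

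In *Kir2.1*-OE, neighbours changed places at 2 points of the order. *Eps8l2* stood at 517 ± 67.9 normalized counts per kb, above *Gpsm2* at 369 ± 24.1, and their libraries no longer overlapped. *Myo15* stood at 38.9 ± 7.38, above *Myo3b* at 26.8 ± 2.49, also without overlap. *Gnai3* remained the highest at 3188 ± 297 and *Myo3a* the lowest at 11.95 ± 1.97.

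**Figure D1:**
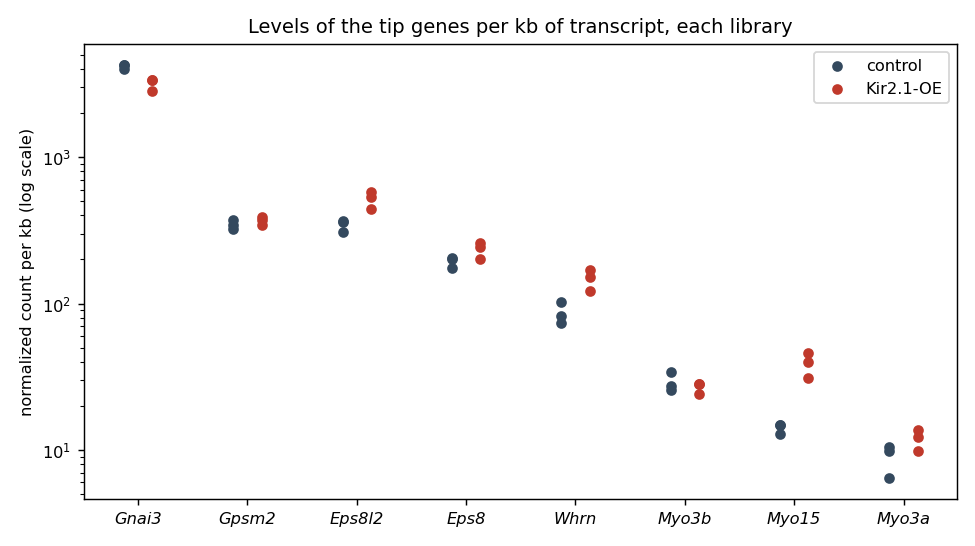
Normalized counts per kb of the longest annotated transcript (log scale) of the 8 tip genes, ordered by their control mean, with 1 point for each control (dark) and *Kir2.1*-OE (red) library. *Gnai3* stands highest and *Myo3a* lowest in both groups, while *Myo15* lies below *Myo3b* in the controls and above it in *Kir2.1*-OE.

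Of the 8 members, 3 were called higher in *Kir2.1*-OE and 0 lower, where a call needs an adjusted p under 0.05 and a fold change above 1.5. Of all genes tested, 20.5% were called, 15.5% higher and 5.08% lower, so the share called among the members has to be read against a tissue in which many genes rose. At an adjusted p under 0.05 alone, 4 members passed, 3 higher and 1 lower, beside 50.8% of all genes in either direction. The 3 libraries of one group did not overlap those of the other for 4 members, beside 61.6% of all genes. The median log2 fold change was 0.35 over the members and 0.01 over all genes tested. Of the 3143 genes called, 2365 were higher, and with upper quartile scaling 1897 of 3275 were.

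**Figure D2:**
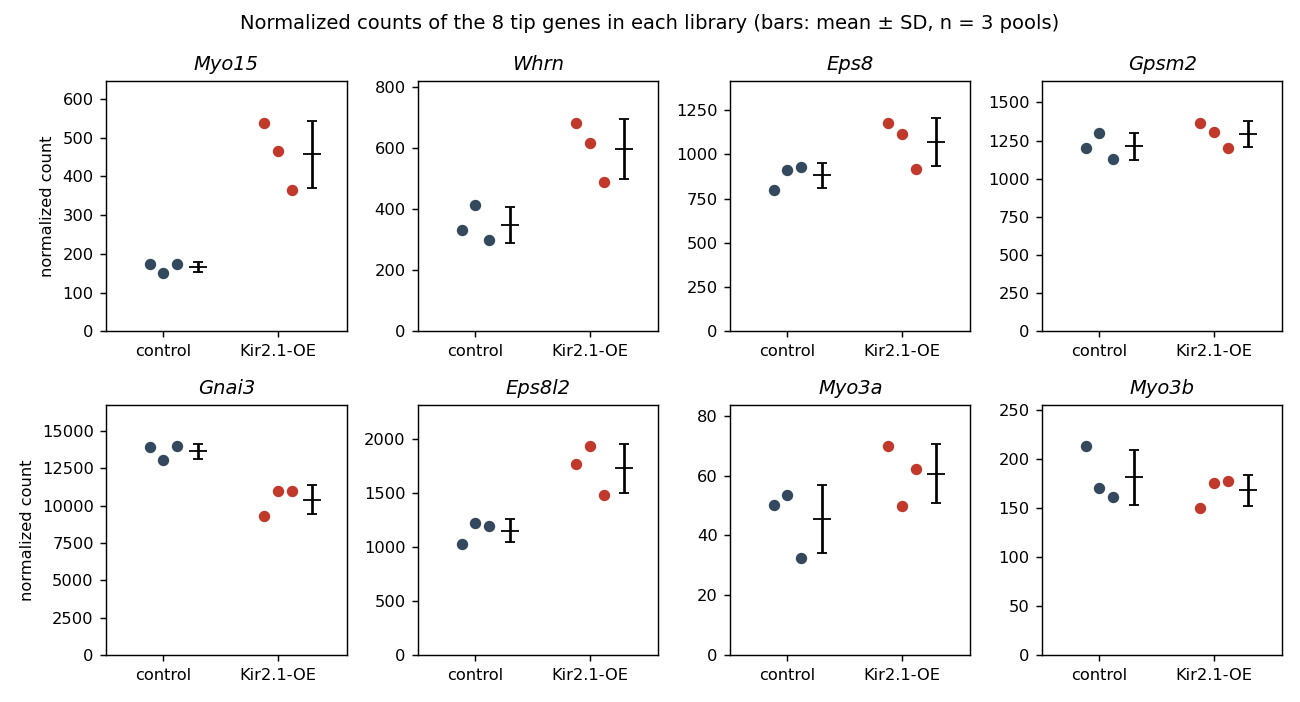
Normalized counts of each tip gene in the 3 control (dark) and 3 *Kir2.1*-OE (red) libraries, replicates 1 to 3 from left to right, with the mean ± SD of each group as a bar, on axes that start at 0. *Myo15*, *Whrn* and *Eps8l2* lie higher in all *Kir2.1*-OE libraries than in any control, *Gnai3* lies lower, and the groups of the other 4 genes overlap.

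*Myo15*, the motor of the row 1 complex, rose most. Its normalized counts were 539, 467 and 366 in *Kir2.1*-OE and 174, 152 and 173 in the controls. The lowest *Kir2.1*-OE pool stood well above the highest control, and the *Kir2.1*-OE pools also spread more widely. The mean was 2.75-fold higher (457 ± 86.8 against 166 ± 12.5), a log2 fold change of 1.46 (SE 0.161, 95% interval 1.10 to 1.82, adjusted p = 1.98e-04, edgeR quasi-likelihood test, Benjamini-Hochberg). It was also the only member whose change exceeded a log2 value of 0.6 when tested against that size by glmTreat in edgeR, with an adjusted p of 0.00438.

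*Whrn*, which encodes the scaffold that MYO15 carries, rose as well. The *Kir2.1*-OE libraries had 684, 617 and 491 normalized counts and the controls 333, 414 and 300.3. All *Kir2.1*-OE pools were above all controls, with less distance between the groups than for *Myo15*. The log2 fold change was 0.77 (SE 0.157, 95% interval 0.42 to 1.12, adjusted p = 0.00308, edgeR quasi-likelihood test, Benjamini-Hochberg).

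*Eps8*, the actin capping and bundling partner in the same complex, did not pass the test. Its normalized counts were 1179, 1118 and 919 in *Kir2.1*-OE and 799.6, 914 and 929 in the controls. Replicate 3 of *Kir2.1*-OE fell inside the control range, while the other two pools were above it. The log2 fold change was 0.28 (SE 0.109, 95% interval 0.04 to 0.53, adjusted p = 0.0538, edgeR quasi-likelihood test, Benjamini-Hochberg). Without *Kir2.1*-OE replicate 3 the adjusted p of *Eps8* was 0.0127, so this pool decided on which side of 0.05 the gene stood.

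Of the pair that marks row 1, *Gpsm2* and *Gnai3* went separate ways. *Gpsm2*, a regulator that binds GNAI proteins, had 1367, 1308 and 1201 normalized counts in *Kir2.1*-OE and 1204, 1302 and 1130.2 in the controls, and the pools of the groups overlapped. Its log2 fold change was 0.09 (SE 0.0848, 95% interval -0.10 to 0.28, adjusted p = 0.392, edgeR quasi-likelihood test, Benjamini-Hochberg), so the interval leaves out changes of 1.5-fold in either direction.

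*Gnai3* was the member that fell. It had 9281, 10961 and 10959.5 normalized counts in *Kir2.1*-OE and 13898, 13050 and 13958 in the controls, and every *Kir2.1*-OE pool was below every control. The log2 fold change was -0.39 (SE 0.0846, 95% interval -0.58 to -0.20, adjusted p = 0.00422, edgeR quasi-likelihood test, Benjamini-Hochberg), which is under the 1.5-fold limit for a call. *Gnai3* RNA is made by most cells of the cochlea, so these counts are those of the whole tissue.

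*Eps8l2*, the gene needed to maintain the shorter rows, rose just past the limit for a call. Normalized counts were 1771, 1930 and 1482 in *Kir2.1*-OE and 1029, 1221 and 1197 in the controls, with no overlap between the groups. The log2 fold change was 0.59 (SE 0.110, 95% interval 0.34 to 0.84, adjusted p = 0.00203, edgeR quasi-likelihood test, Benjamini-Hochberg), beside a limit of 0.585 for a 1.5-fold change. Leaving out *Kir2.1*-OE replicate 1, *Kir2.1*-OE replicate 2 or control replicate 1 brought it to 0.56, 0.48 and 0.51, under the limit, while its adjusted p stayed at or below 0.0139.

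Neither of the class III myosins passed the test. *Myo3a* had 69.8, 49.97 and 62.4 normalized counts in *Kir2.1*-OE and 50.2, 53.6 and 32.6 in the controls, and *Kir2.1*-OE replicate 2 was below 2 of the controls. Its log2 fold change was 0.41 with a 95% interval of -0.20 to 1.02 (SE 0.271, adjusted p = 0.229, edgeR quasi-likelihood test, Benjamini-Hochberg). At these counts a difference of 1.5-fold in *Myo3a* could not be told from no difference.

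*Myo3b* had 149.9, 176 and 178 normalized counts in *Kir2.1*-OE and 213, 169.9 and 161 in the controls, so that 2 *Kir2.1*-OE pools fell inside the control range and 1 below it. Its log2 fold change was -0.11 (SE 0.166, 95% interval -0.48 to 0.26, adjusted p = 0.607, edgeR quasi-likelihood test, Benjamini-Hochberg). Without control replicate 1, its highest pool, *Myo3b* stood at 0.02 on the log2 scale, so no direction can be given.

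The pools were not equal among themselves. *Kir2.1*-OE replicate 1 held the highest value of its group for 5 of the 8 members and replicate 3 the lowest for 5. Among the controls, replicate 2 was highest for 4 and replicate 3 lowest for 4.

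Across genes, the change between the groups moved with the length of the transcript. Spearman's rho between the log2 fold change and the longest annotated transcript was 0.556 over 15200 genes, which share the same 6 libraries and are not independent. The 3 members called are those with the highest GC content in their longest transcript, 63.2% in *Whrn*, 57.4% in *Myo15* and 57.3% in *Eps8l2*, while the other 5 lay between 41.7% and 47.6%, beside a median of 49.9% over all genes tested. *Myo15* also has by far the longest transcript, 11769 nt, beside 3262 to 6256 nt in the other members and a median of 3382 nt.

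A trend on transcript length and GC content, fitted over all genes in each library, gave a difference between the groups for a gene of each member's length and GC. On the log2 scale this was 1.17 for *Myo15*, 0.59 for *Whrn*, 0.44 for *Myo3b*, 0.26 for *Eps8l2*, 0.20 for *Eps8*, 0.16 for *Myo3a*, 0.03 for *Gpsm2* and -0.14 for *Gnai3*. Measured values were above the trend in the 6 members other than *Gnai3* and *Myo3b*, which were below it.

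With this trend entered in the model as an offset, 0 of the 8 members were called, beside 9.82% of all genes. At an adjusted p under 0.05 alone, 3 members passed, *Eps8l2* higher and *Gnai3* and *Myo3b* lower, beside 34.6% of all genes. The log2 fold change of *Myo15* became 0.27 (95% interval -0.08 to 0.62, adjusted p = 0.199) and that of *Whrn* 0.18 (adjusted p = 0.308), both by edgeR quasi-likelihood test, Benjamini-Hochberg. *Eps8l2* became 0.33 (adjusted p = 0.0377), *Gnai3* -0.25 (adjusted p = 0.0444) and *Myo3b* -0.55 (95% interval -0.94 to -0.16, adjusted p = 0.0341) by the same test.

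*Eps8l2* and *Gnai3* thus passed in both fits with the same direction, *Myo15* and *Whrn* only without offsets and *Myo3b* only with them. The median over the members was 0.13 with offsets, beside -0.06 over all genes. *Eps8*, *Gpsm2* and *Myo3a* passed the test in neither fit. With offsets rho was 0.0445, and 891 of the 1503 genes called were higher. Whether the trend with length and GC belongs to the tissue or to the libraries was not tested.

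**Figure D3:**
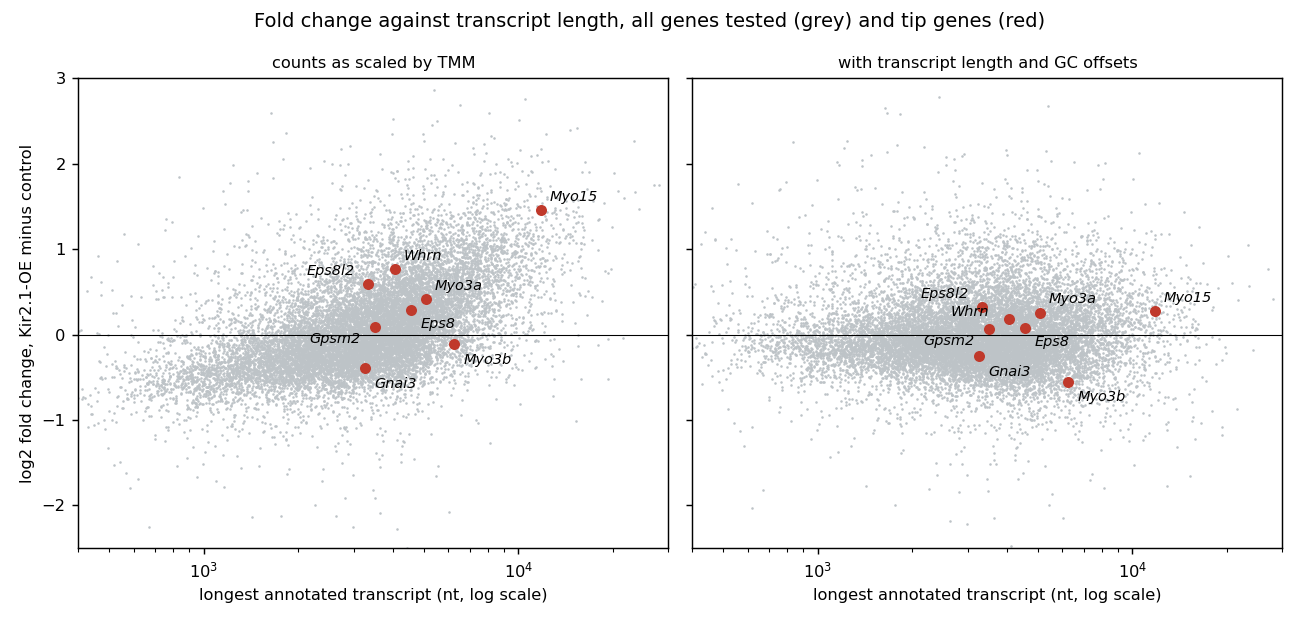
Log2 fold change (*Kir2.1*-OE minus control) against the longest annotated transcript in nt (log scale) for all genes tested (grey) and the 8 tip genes (red), from counts scaled by TMM on the left and with length and GC offsets on the right; genes outside the plotted range are not drawn. On the left *Myo15* (1.46) lies at the long end of a rising cloud, and on the right it lies at 0.27 while *Myo3b* lies at -0.55.

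**Figure D4:**
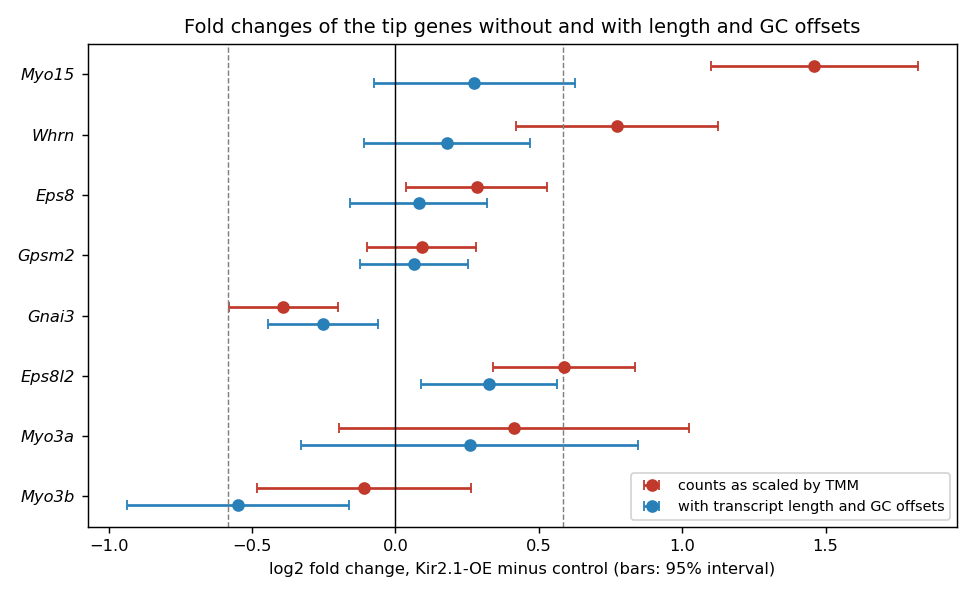
Log2 fold changes (*Kir2.1*-OE minus control) with 95% intervals of the 8 tip genes, from counts scaled by TMM (red) and with transcript length and GC offsets (blue), with dashed lines at a 1.5-fold change. The intervals of *Myo15*, *Whrn*, *Eps8* and *Eps8l2* lie above 0 and that of *Gnai3* below it without offsets, and with offsets those of *Eps8l2*, *Gnai3* and *Myo3b* leave out 0.

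Ratios between members within a library do not depend on the scaling between libraries. The *Myo15* to *Whrn* ratio of counts, motor to cargo, was 0.764 ± 0.0221 in *Kir2.1*-OE and 0.488 ± 0.109 in the controls (SD, n = 3), a log2 difference of 0.67 (SE 0.200). The *Gpsm2* to *Gnai3* ratio was 0.125 ± 0.0196 and 0.0891 ± 0.00965, a difference of 0.49 (SE 0.155). The *Eps8l2* to *Eps8* ratio was 1.61 ± 0.112 and 1.30 ± 0.0281, a difference of 0.31 (SE 0.0605).

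In these 3 ratios all *Kir2.1*-OE libraries were above all controls, and each reached p = 0.10 in an exact two-sided permutation test, the smallest that 3 libraries against 3 allow. With length and GC offsets, however, the *Myo15* to *Whrn* difference was 0.09 and its libraries overlapped (exact two-sided permutation p = 0.70). The *Gpsm2* to *Gnai3* difference was then 0.32 and the *Eps8l2* to *Eps8* difference 0.25, both still without overlap. Without offsets, the *Myo3b* to *Myo3a* ratio was 2.84 ± 0.687 and 4.12 ± 0.891, a log2 difference of -0.54 (SE 0.279), and its libraries overlapped (exact two-sided permutation p = 0.20), while with offsets the difference was -0.83 and all *Kir2.1*-OE libraries were below all controls (p = 0.10, exact permutation). The 4 ratios were computed as 1 family, and no p could pass 0.05 before or after adjustment.

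Hair bundles belong to hair cells, so the members were also set against 8 genes expressed in inner and outer hair cells alike, among them *Pou4f3*, *Gfi1* and *Myo6*; *Pvalb*, also on this list, is made by spiral ganglion neurons too. The summed count of these markers, of which *Myo6* gave the largest share, lay between 24510 and 26010 in *Kir2.1*-OE and between 21540 and 23310 in the controls, 1.13-fold apart without overlap. Of the 8 markers, 0 were called higher and 1 lower, *Atoh1*, beside 15.5% and 5.08% of all genes. *Atoh1* held only 11.3 to 43.1 normalized counts and was not called with length and GC offsets. *Myo6* rose (0.36, log2) and *Rbm24* fell (-0.47), both without overlap and with adjusted p under 0.05, below the limit for a call. With offsets *Myo6* stood at -0.11 and *Rbm24* at -0.49. Relative to the sum within each library, the log2 difference was 1.27 for *Myo15*, 0.60 for *Whrn* and 0.41 for *Eps8l2*, and all *Kir2.1*-OE libraries were above all controls.

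For *Gnai3* it was -0.57 and for *Myo3b* -0.28, with all *Kir2.1*-OE libraries below all controls. *Eps8* (0.10), *Myo3a* (0.26) and *Gpsm2* (-0.08) overlapped between the groups. The 5 genes without overlap each reached the smallest exact two-sided permutation p of 0.10. In normalized counts, without division by this sum, 61.6% of all genes did not overlap.

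These differences depended on *Myo6*. Without it, the summed markers lay between 8079 and 10530 in *Kir2.1*-OE and between 9083 and 10530 in the controls, 0.926-fold of the control with overlapping ranges. *Pvalb*, which neurons also make, then gave the largest share of the sum. It had 4222, 4132 and 7027 normalized counts in *Kir2.1*-OE and 5246, 5312 and 5044 in the controls. Against this sum *Myo3b* stood at 0.01, *Gpsm2* at 0.21 and *Gnai3* at -0.28, all with overlapping libraries, so the separation of *Myo3b* and *Gnai3* was lost and no direction can be given for *Myo3b* or *Gpsm2*. *Myo15* (1.56), *Whrn* (0.89), *Eps8l2* (0.70) and *Myo3a* (0.56) then lay higher in all *Kir2.1*-OE libraries than in any control. With length and GC offsets and *Myo6* in the sum, *Myo15* (0.31) and *Whrn* (0.21) overlapped between the groups, and *Eps8l2* (0.36) remained above and *Gnai3* (-0.22) and *Myo3b* (-0.51) below the controls.

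Markers of other cells moved between the groups beside the members. The sum of 3 IHC markers was 1.35-fold higher in *Kir2.1*-OE without overlap, with 1 of 3, *Otof*, called higher. With length and GC offsets 0 of the 3 were called, with *Otof* at -0.08 and *Slc17a8* at 0.01 on the log2 scale. *Tbx2* was then at -0.20, lower with an adjusted p under 0.05. The sum of 6 outer hair cell markers was 0.925-fold of the control with overlapping ranges. Of these 6, 3 were called higher, *Slc26a5* (1.54-fold), *Ikzf2* (1.52-fold) and *Bcl11b* (1.62-fold). *Chrna10* was at 0.73 of the control level without overlap, with an adjusted p under 0.05 but below the limit for a call. *Ocm*, which gave the largest share of the sum, was at 0.81 of the control level without passing the test. With offsets *Slc26a5* (0.70, log2) was still called and *Chrna10* (-0.48) still passed the test, while *Ikzf2* (0.17) and *Bcl11b* (0.02) did not pass. The sum of 6 spiral ganglion neuron markers lay between 19290 and 49600 in *Kir2.1*-OE and between 8588 and 14420 in the controls, 2.93-fold higher, with 4 of 6 called. The sum of 6 cartilage and bone markers was 1.92-fold higher with 2 of 6 called, that of 4 glial markers 1.36-fold higher with 1 of 4 called, and that of 5 macrophage markers 1.12-fold higher with 0 of 5 called.

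Melanocyte markers were at 0.455 and erythrocyte markers at 0.47 of the control level, each with 2 genes called lower, while supporting cell (1.03-fold) and fibrocyte (1.08-fold) sums overlapped. Of 6 supporting cell markers 1 was called higher, *Prox1* (2.18-fold), and of 5 fibrocyte markers 1, *Coch* (1.55-fold). The part of these other cells in the counts of the 8 members was not tested. *Clcc1*, which overlaps *Gpsm2* on the opposite strand, had a log2 fold change of -0.12 (adjusted p = 0.191), and *B230206H07Rik*, which overlaps *Eps8l2* on the opposite strand, had 0.94 (adjusted p = 0.0259, edgeR quasi-likelihood test, Benjamini-Hochberg). The strand setting of the counting is not stated, so reads of these pairs may be shared.

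Around the members stands a wider set of 26 tip, row and polarity genes. Of the 25 tested, 6 were called higher and 0 lower, beside the 20.5% of all genes given above, and their median log2 fold change was 0.02. At an adjusted p under 0.05 alone 8 were higher and 6 lower, 14 of the 25, beside 50.8% of all genes in either direction. The libraries of 17 of the 25 did not overlap, beside 61.6% of all genes. *Eps8l3*, the remaining gene and a relative of *Eps8*, had no reads in any library.

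Of the 9 genes of the polarity machinery around GNAI proteins, 4 were called higher, beside 15.5% of all genes. With length and GC offsets 0 were called, beside 9.82% of all genes. At an adjusted p under 0.05 alone, 2 were then higher and 4 lower, beside 34.6% of all genes. *Numa1*, a partner of GPSM2 at the cell cortex, rose by 1.23 on the log2 scale, from 2292 ± 480 to 5371 ± 769 normalized counts. *Ccdc88c* (1.22), *Pard3* (0.86), a cell polarity scaffold, and *Gnao1* (0.75), another G-protein subunit, were called too. With offsets *Numa1* (0.42) and *Pard3* (0.30) passed the test below the limit for a call, and *Ccdc88c* (0.35) and *Gnao1* (0.13) did not pass. *Insc*, which binds GPSM2 in polarity, and *Gnai2* fell by 0.36 and 0.21 with adjusted p under 0.05, below the limit for a call, while *Gnai1* stood at 0.05 with overlapping libraries.

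*Pdzd7*, which encodes a whirlin-related scaffold of the ankle links, had 194, 167 and 141 normalized counts in *Kir2.1*-OE and 75.3, 78.0 and 63.1 in the controls. All *Kir2.1*-OE libraries were above the controls, and the log2 fold change was 1.21 (SE 0.193, adjusted p = 9.54e-04, edgeR quasi-likelihood test, Benjamini-Hochberg). *Sos1* (0.68), a signalling partner of EPS8, was called, and *Baiap2* (0.48) passed the test below the limit for a call.

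The genes of row 2 and actin capping showed 0 of 6 calls, beside 20.5% of all genes. At an adjusted p under 0.05 alone 3 of the 6 passed, beside 50.8% of all genes. Among them *Capza1* (-0.41), *Capza2* (-0.34) and *Twf2* (-0.24) fell with adjusted p under 0.05, and *Baiap2l2*, which marks row 2 tips, stood at 0.00 (log2) with overlapping libraries. Of the cargo of class III myosins, *Espn* (0.37) rose and *Morn4* (-0.30) fell below the limit for a call, and *Espnl* stood at 0.10 without passing the test. *Espn* changed direction to -0.29 with length and GC offsets, and *Morn4* stood at -0.19, neither passing the test. With length and GC offsets 2 of the 25 were called, beside 9.82% of all genes. These were *Pdzd7*, higher at 0.86 (adjusted p = 0.00722), and *Espnl*, lower at -0.59 (adjusted p = 0.00299), both by edgeR quasi-likelihood test, Benjamini-Hochberg.

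**Figure D5:**
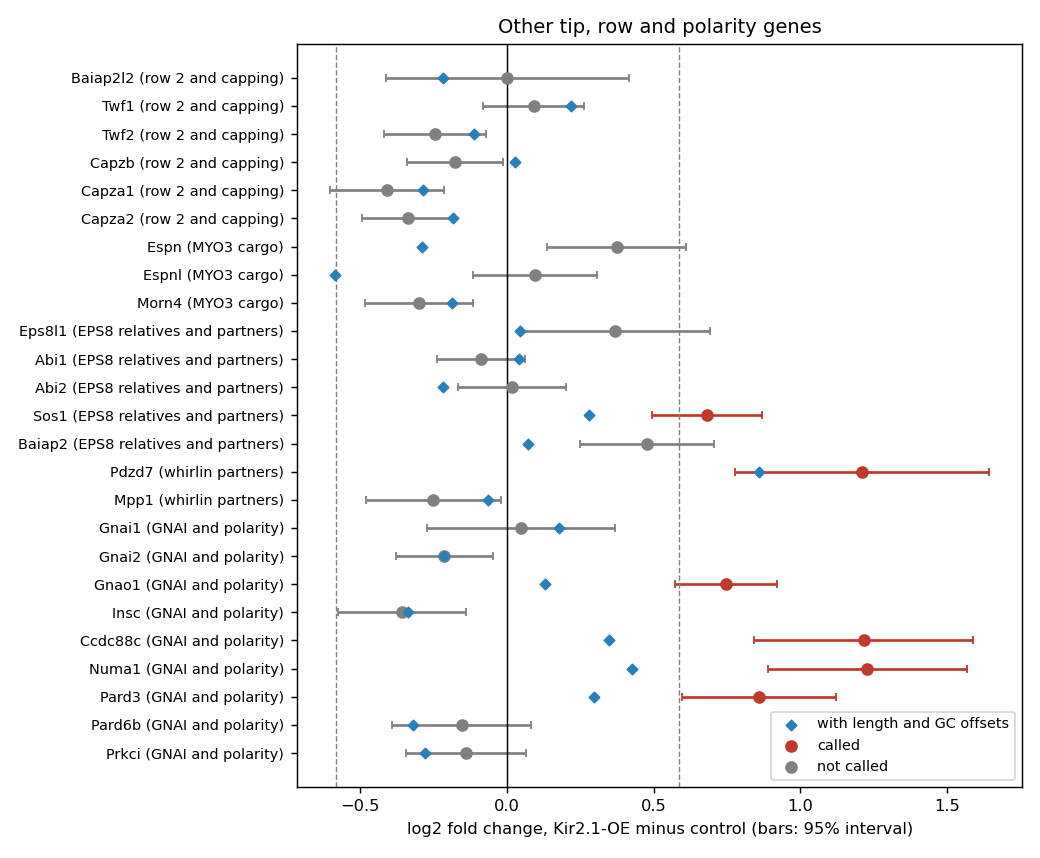
Log2 fold changes (*Kir2.1*-OE minus control, with 95% intervals) of the 25 other tip, row and polarity genes tested, red where called and grey where not, with blue diamonds for the value with length and GC offsets and dashed lines at a 1.5-fold change. Red points lie among the polarity genes and the partners of whirlin and EPS8, up to 1.23 in *Numa1*. Of all genes tested, 20.5% were called.

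To place the pattern of *Myo15*, 13643 genes with a mean of at least 50 normalized counts were ranked by the root mean square distance of their centred log2 profile over the 6 libraries from its own. The nearest were *Eppk1* (0.0866), *Mcc* (0.0952), *Utp14b* (0.107), *Cacna1e* (0.119) and *Zbed6* (0.126), beside a median distance of 0.749. Their longest transcripts were 12332, 7858, 7393, 14921 and 5007 nt, and none was among the stereocilia genes listed. With offsets *Eppk1* stood at 0.26 on the log2 scale, close to the 0.27 of *Myo15*, and was not called. The others, *Mcc* (0.77), *Utp14b* (0.87), *Cacna1e* (0.60) and *Zbed6* (1.47), were still called.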

How the data were processed

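RNA of 3 *Kir2.1*-OE and 3 control pools was sequenced in paired reads on a NovaSeq, and the authors mapped it to mm10 with the nf-core RNA pipeline and counted it with Salmon. The authors deposited expected counts per gene symbol, neither length- nor depth-scaled (6.95% of values are not whole); tool versions, annotation and strand setting are not given in the sources used here. The file of control replicate 1 carries replicate number 4 in its header and was assigned by its label. Rounded counts entered edgeR 4.0.16 under R 4.3.3 (TMM, filterByExpr, quasi-likelihood test, Benjamini-Hochberg over 15303 genes, and glmTreat). Offsets came from a loess trend (span 0.4), per library, of the log2 ratio to the mean of the libraries on length and GC of the longest GENCODE vM21 transcript, matched for 15200 genes tested. Single values were compared by exact permutation over libraries. On simulated data without and with a length trend, the plain fit called 10 unchanged genes of 15192 tested and 1751 of 15162, and the offset fit, with the trend, 12 of 15176. The simulated trend was put in on transcript length alone, without GC, and the offsets are fitted on length, so its removal followed from the design. The simulation cannot show how the offsets act where real changes go with length. Libraries of a group differed by more than sampling noise (chi-square per degree of freedom at least 16.3).

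Named genes were the 8 members, *Kcnj2*, called genes of the wider list (and others a sentence needed), hair cell markers and the 5 genes nearest *Myo15*; *Clcc1* and *B230206H07Rik* were named after their values were seen. The members and lists were chosen with earlier results of these data known. Alternatives were other scalings, filters, a replicate block, the offsets, DESeq2 1.42.0, limma 3.58.1 (voom), unrounded counts and each library left out. No protein sequences were used.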

Additional observations from a re-analysis of the deposited data

How the results depend on the processing

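With length and GC offsets, alone or with the replicate block, 0 members and 2 of the wider list were called, and the member median was 0.13; with offsets and the block, no member had an adjusted p under 0.05 (*Eps8l2* 0.0645, *Myo3b* 0.0904, *Gnai3* 0.109); tested against a log2 fold change of 0.6, 1 member and 3 of the wider list were called, and without a fold limit 14 of the wider list. Leaving out each library in turn gave 2 to 3 members and 6 of the wider list. Of 136 member values over 17 alternatives each, 121 kept direction and side of the threshold for a call, 14 lost the call and 1 reversed: *Myo3b* without control replicate 1 (range with 1 library left out -0.19 to 0.0198). The 5 members not called had only to stay uncalled in 1 direction to be counted as kept, and they had no call to lose. *Eps8*, *Gpsm2*, *Gnai3* and *Myo3a* were counted so in 17 of 17 and *Myo3b* in 16, among them its -0.55 with offsets. *Eps8l2* lost its call in 10 of 17 alternatives and *Myo15* and *Whrn* in 2 each, both with offsets. With the replicate block and no offsets 2 members were called, and 2938 genes in all; replicate numbers were not taken as a pairing, since deviations of same-numbered pools correlated at -0.232 to -0.106 and no pool correlated best with its own number. The ratio of the highest to the lowest control level per kb was 467 and became 202 with the median annotated transcript; the median of the members against hair cell markers was 0.18 and became 0.48 without *Myo6*. The cause was not tested. Depth limits *Myo3a*, at most 69.8 normalized counts in any library.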
